A study of Mus musculus with 2 samples.

Results

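The acid, ion and water transport genes on this mouse array were compared between pyloric stomach cells with high and with low expression of Lgr5. The members were all gene probes whose name in the array files begins with the letters of a gastric proton pump subunit (Atp4a, Atp4b), a sodium pump subunit (Atp1a, Atp1b), a carbonic anhydrase (Car), a potassium channel or channel subunit (Kcnq, Kcne, Kcnj), an anion or proton exchanger or cation-chloride cotransporter (Slc4a, Slc26a, Slc9a, Slc12a), a chloride channel (Clcn, Cftr) or an aquaporin (Aqp, without Aqp5). This name rule, which used no measured value, found 112 genes with 178 probes among 27725 gene names with 41174 probes. It was chosen, however, with earlier results of these data known. A group of 13 members with a known part in the acid secretion of the parietal cell was kept apart from the other 99. Some members share only the letters of a family. Among these, Slc9a3r1 and Slc9a3r2 encode scaffold proteins that bind sodium-proton exchangers, and Slc4a1ap encodes an adaptor protein of an anion exchanger. Kcnq1ot1 is a long non-coding RNA made from the opposite strand of the Kcnq1 locus.

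Acid secretion by the stomach's parietal cells starts with the H,K-ATPase, a pump in the apical membrane that exchanges protons for potassium. Potassium channels return the potassium to the lumen and chloride leaves in parallel, so that hydrochloric acid is secreted, while carbonic anhydrase supplies protons and bicarbonate and a basolateral anion exchanger removes the bicarbonate. Other epithelial cells use the same families for chloride and bicarbonate secretion and for the control of cell volume and pH, with the Na,K-ATPase providing the sodium gradient. Parietal cells are numerous in the corpus of the stomach and fewer in the pylorus, the part in front of the intestine.

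Both populations came from mice of the knock-in strain Lgr5-EGFP-ires-CreERT2, which carry GFP and a Cre recombinase in the Lgr5 gene, so that the brightness of GFP follows Lgr5, a receptor of the Wnt pathway and a stem cell marker. Pyloric tissue of 20 such mice was pooled, dissociated and sorted into GFPhigh and GFPlow cells, and no cells without GFP or from mice without the knock-in allele entered the comparison. The populations shared tissue, strain and allele, and no age or drug treatment is given in the sources used here. RNA of both was hybridised together on 2 arrays with opposite dyes, where Cy3 labelled GFPhigh on array 1 and GFPlow on array 2. The labels name 1 pool of mice and no separate RNA preparations, so the arrays were taken as repeat measurements of 1 RNA sample per population, the populations could not be tested against each other and p-values are left out. Each ratio is the log2 of GFPhigh over GFPlow, each SD is that of the 2 arrays and, on that reading, holds technical error only, and to be counted as higher on either side a gene needed a ratio of at least 2-fold that way on each array. In such bulk samples, fewer cells of a type and less RNA per cell cannot be told apart.

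Array intensities, which are relative and have no unit, limited which members could be read. Per channel, 18.7% to 31.7% of the gene spots exceeded background clearly, no gene spot was saturated, and over 9498 probes the arrays' log2 ratios differed with an SD of 0.56. Lgr5 itself had ratios of 2.33 and 2.24, a mean of 2.28 ± 0.06. Of the 112 members, 36 were measured, that is, had a probe that was well above background on each array in whichever population was brighter. Of the other 76, 61 were above background in no channel of either array. Of the 36, GFPhigh was above background on neither array for 3 (Car13, Slc26a2 and Aqp3), which therefore entered through GFPlow alone, while 26 were above background in all 4 channels.

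The probes behind the main results are shown by the first 30 of their 60 bases, 5′ to 3′ as synthesised, with their positions in the mm9 build named in the file headers. These are the probes of the 5 members counted as different between the populations, and those of both proton pump subunits. No gene annotation of that build was used, so exons and untranslated regions are not given.
Slc12a8, chr16:33663298-33663357, plus strand: acgctggaaatcacattccggtctgaaatg
Slc9a3, chr13:74306729-74306788, plus strand: tgtgtattaatgtgaatatagtcatagttg
Kcnq1, chr7:150612740-150612799, plus strand: gaccaatgctcagactccagcctctttcac
Car12, chr9:66614036-66614095, plus strand: tcagcgctgtcaacctttaactcctgaaga
Car13, chr3:14661587-14661646, plus strand: ggtcaacccaatcggaacacggaggtagca
Atp4a, brighter probe, chr7:31509933-31510201, plus strand: tccggaaacttggagttcgctgttgcccag
Atp4a, further probe, chr7:31509268-31509327, plus strand: catcgagatgtgccagatcgcagatgtcct
Atp4b, chr8:13386309-13386368, minus strand: tgtgatcatttgcccgtcctgcacttcaat
The brighter Atp4a probe covers 269 bases of the genome with its 60 bases, so its match is split, while the further Atp4a probe lies in 1 block.

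Most of the measured transport genes differed by less than 2-fold between the populations. Higher in GFPhigh were Slc12a8, Slc9a3, Kcnq1 and Car12, which is 4 of the 36 measured members, beside 1.76% of all 7829 measured genes. Higher in GFPlow was Car13 alone, 1 of 36, beside 2.7% of all genes. The median ratio was 0.27 over the 36 members and -0.06 over all genes, and 16 members were above 0 on both arrays, 10 below 0 on both and 10 of opposite sign on the arrays. Over genes above background in all 4 channels, the median was 0.47 for 26 members and 0.04 for all 6224 such genes. The split of 4 against 1 depended on the centring: it was 0 against 1 when each array was centred on its median in place of loess, and 0 against 6 when the mean of the spike-in RNA controls was set to 0. All genes moved with it, to 10 against 215 of 8209 with median centring and 22 against 1313 of 8197 with spike-in centring, so that the 6 of 41 members then counted in GFPlow are near the share of all genes. The latter centring lowers every ratio by 0.59 on array 1 and by 0.97 on array 2, and turns 13 of the 21 members with a positive mean negative. All ratios below are therefore relative to a loess curve through all genes, whose own median was -0.06, against -0.49 with median centring and -0.81 with spike-in centring. With median centring this median had an SD of 1.05 between the arrays, beside 0.04 with loess. Means under that setting therefore average unlike arrays.

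**Figure D1:**
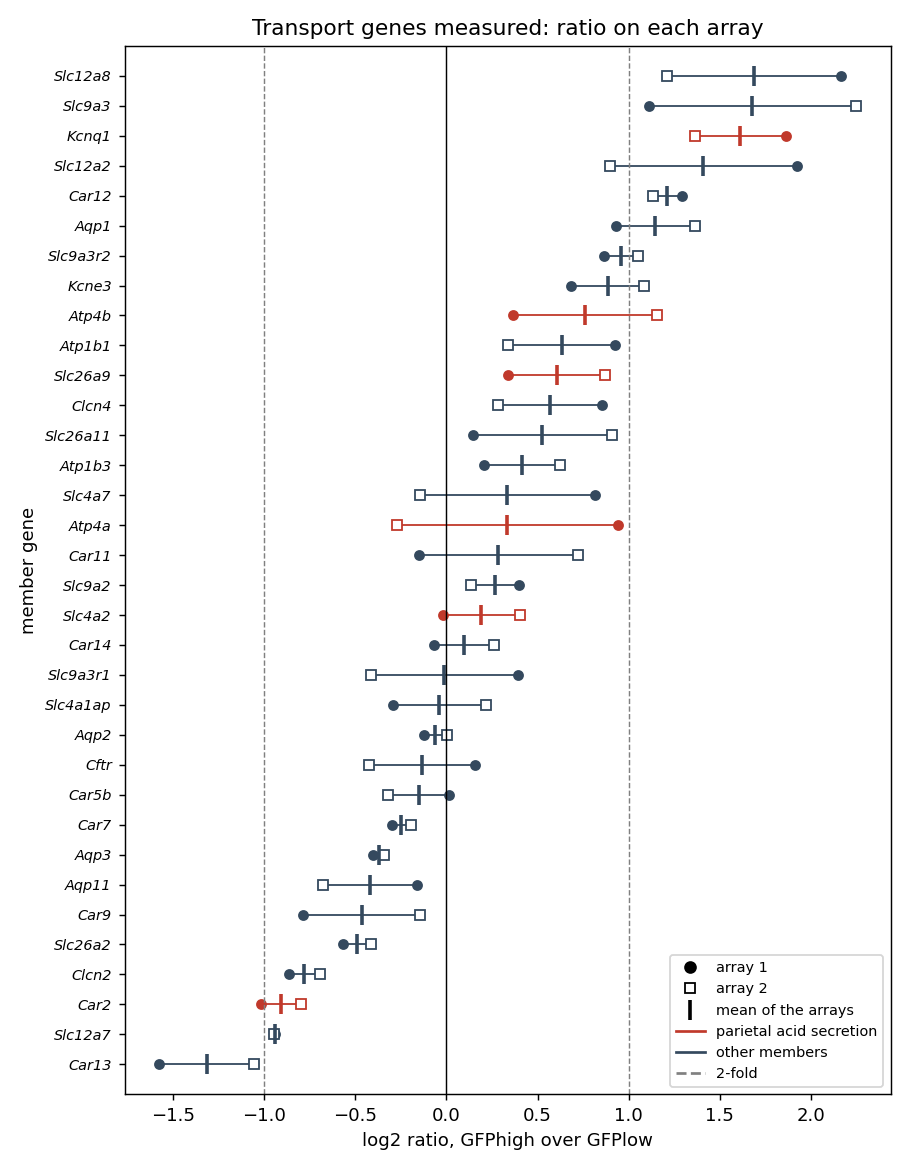
Log2 ratio of GFPhigh over GFPlow (horizontal axis) of 34 of the 36 measured members, with filled circles for array 1, open squares for array 2, a bar at their mean, and acid secretion genes in red. Slc12a8, Slc9a3, Kcnq1 and Car12 lie beyond the dashed 2-fold line on both arrays on the GFPhigh side and Car13 on the GFPlow side. With spike-in centring all points would move left by 0.59 (array 1) and 0.97 (array 2), which leaves 8 means above 0.

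Of the 13 acid secretion genes, 6 were measured (Atp4a, Atp4b, Kcnq1, Slc26a9, Slc4a2 and Car2). Of these 6, 1 (Kcnq1, 16.7%) was counted as higher in GFPhigh and none in GFPlow, beside 1.76% and 2.7% of all measured genes. The median of the 6 was 0.47, with 0.35 on array 1 and 0.64 on array 2, and 0.33 without Kcnq1. With median centring the median turned to -0.037, and with spike-in centring to -0.45 over the 7 genes then measured. The 30 other measured members had a median of 0.18, which turned to -0.25 and -0.67 with the same centrings, over the larger sets then measured. Of the 30, 3 were counted as higher in GFPhigh (10%, beside 1.76% of all measured genes) and 1 in GFPlow (3.33%, beside 2.7%).

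The proton pump itself was present in both populations and was not counted as different. Atp4b, the glycosylated beta subunit of the H,K-ATPase, had normalized intensities of 1443 and 2141 in GFPhigh and of 1122 and 962 in GFPlow on arrays 1 and 2. GFPhigh was the brighter population on both arrays and the ranges did not overlap, but the size differed between the arrays. The ratios were 0.36 and 1.16, a mean of 0.76 ± 0.56 that became -0.02 with spike-in centring. Atp4a, the catalytic alpha subunit, had intensities of 367 and 219 in GFPhigh and of 191 and 265 in GFPlow. Here the populations overlapped and their order changed from array to array. The ratios of Atp4a were 0.94 and -0.27, a mean of 0.33 ± 0.86 whose SD exceeds its size, and the further Atp4a probe repeated this with 0.61 and -0.20. The 2 Atp4a probes share no run of more than 5 bases.

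Kcnq1, the pore-forming subunit of the potassium channel that returns potassium to the gastric lumen, was the acid secretion gene with the largest difference. Its intensities were 3487 and 3008 in GFPhigh and 959 and 1170 in GFPlow. Both GFPhigh values lay well above both GFPlow values. The ratios were 1.86 and 1.36, a mean of 1.61 ± 0.35 or 3.06-fold, and 99.2% of all measured genes had a lower ratio. Its mean stayed positive in every alternative tried, at 0.86 with median centring and 0.83 with spike-in centring, where it was no longer 2-fold. With median centring the SD between the arrays was 1.87, so that the arrays differed in sign. Kcne2, the small subunit that pairs with Kcnq1 in parietal cells, was above background in 3 of the 4 channels but in GFPhigh on array 1 only, and was not measured. Its unfiltered ratios were 0.41 and 0.08. Kcne3, a further small subunit, which pairs with Kcnq1 in chloride-secreting epithelia of the intestine, was bright in both populations, with 11320 and 10706 in GFPhigh and 7045 and 5046 in GFPlow. GFPhigh was brighter on both arrays, with ratios of 0.68 and 1.09 and a mean of 0.88 ± 0.28, but 2-fold was passed on array 2 only and the mean became -0.02 with median centring. The antisense RNA Kcnq1ot1 was above background in 1 channel of its best probe and gave no ratio.

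The chloride and bicarbonate steps of acid secretion showed smaller ratios of both signs. Slc26a9, a chloride transporter of gastric epithelium, had 534 and 761 in GFPhigh and 423 and 416 in GFPlow, so that GFPhigh was brighter on both arrays. Its ratios were 0.34 and 0.87, a mean of 0.60 ± 0.38 that turned to -0.18 with spike-in centring. Slc4a2, the basolateral anion exchanger that removes bicarbonate, had 400 and 472 in GFPhigh and 405 and 357 in GFPlow, overlapping values with a mean ratio of 0.19 ± 0.30. Car2, the abundant cytosolic carbonic anhydrase, went the other way, with 2011 and 2355 in GFPhigh and 4080 and 4092 in GFPlow. Both GFPlow values exceeded both GFPhigh values, and the ratios were -1.02 and -0.80, a mean of -0.91 ± 0.16. Car2 missed the 2-fold rule on array 2 only, and its mean stayed below 0 in every alternative tried, between -1.72 and -0.80. Only 4.94% of all measured genes had a lower ratio.

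The remaining acid secretion genes gave no ratio. Kcnj1, Kcnj10 and Kcnj15 (inward-rectifier potassium channels), Slc26a7 (an anion exchanger) and Aqp4 (a water channel of the basolateral membrane) were above background in no channel. Slc9a4, a basolateral sodium-proton exchanger of parietal cells, exceeded background on array 2 alone, in GFPlow. Parietal cell markers outside the name rule were likewise few: of 8 on the array, 3 were measured, and Hrh2, Chrm3, Cckbr and Ptger3, which encode receptors for histamine, acetylcholine, gastrin and prostaglandin, were above background in no channel. The measured markers had mean ratios of 0.39 ± 0.43 for Clic6, 0.91 ± 0.56 for Vegfb and -0.79 ± 0.38 for Ezr, and none was counted as different. The summed intensity of the 8 markers was 9588 and 7576 in GFPhigh and 8423 and 7342 in GFPlow. That sum joins unmeasured markers with measured ones of opposite sign, so it does not give the parietal cell content of either population. The part of parietal cells in the ratios of the pump subunits was not tested.

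**Figure D2:**
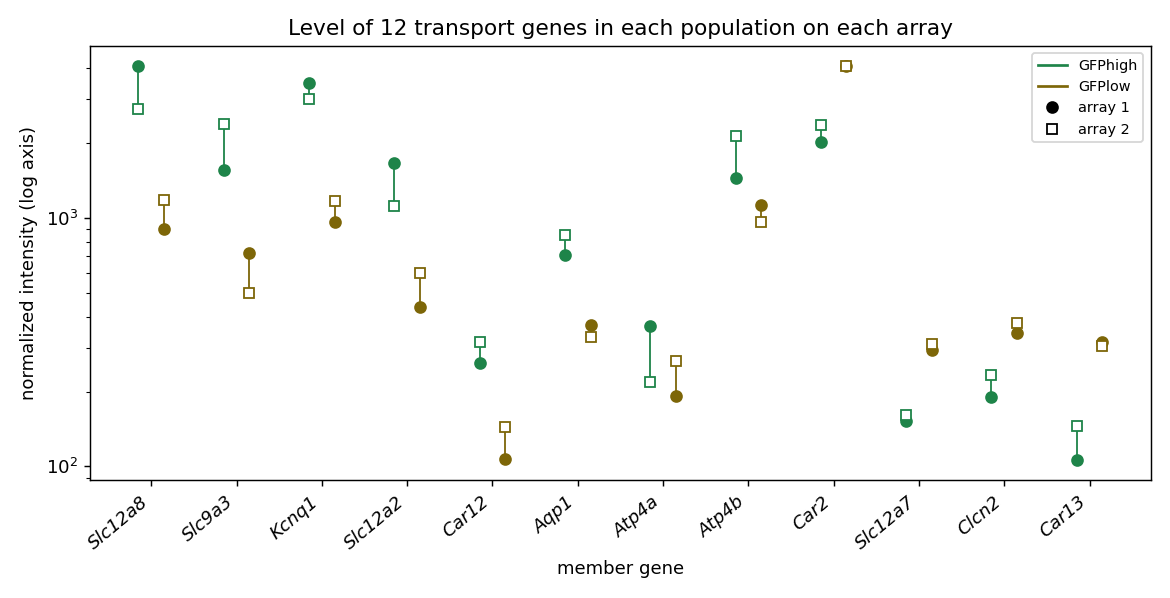
Normalized intensity (vertical log axis, no unit) of 12 members in GFPhigh (green) and GFPlow (brown), with filled circles for array 1 and open squares for array 2. Heights can be read between the populations of a gene but not between genes, since probes differ in brightness. For Kcnq1 both green points are above both brown points, for Atp4a the points interleave, and for Car2 and Car13 both brown points are on top; spike-in centring would lower green against brown by 0.78 log2 units on average, which removes the lead of GFPhigh for Atp4b but not for Kcnq1.

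The sodium pump, which drives most of these transporters, had no subunit counted as different. Atp1b1, the usual beta subunit, had 2752 and 1858 in GFPhigh and 1447 and 1471 in GFPlow. GFPhigh was brighter on both arrays, with ratios of 0.93 and 0.34 and a mean of 0.63 ± 0.42, which turned to -0.11 with median centring and -0.15 with spike-in centring. Atp1b3, a further beta subunit, had ratios of 0.21 and 0.62, a mean of 0.42 ± 0.29 that turned to -0.23 and -0.37 with the same centrings. A further measured Atp1b3 probe gave 0.27 and -0.24, a mean of 0.01, so the order of the populations changed with the array. The beta subunits Atp1b2 and Atp1b4 were above background in no channel.

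Among the cation-chloride cotransporters, which set the chloride content and volume of cells, the measured members lay at both ends of the range. Slc12a8, a member of the family described as a transporter of a nicotinamide nucleotide, had 4061 and 2730 in GFPhigh and 903 and 1180 in GFPlow. The populations were far apart on both arrays, more so on array 1. The ratios of Slc12a8 were 2.17 and 1.21, a mean of 1.69 ± 0.68 or 3.23-fold, and 99.4% of all measured genes had a lower ratio. Slc12a2, the sodium-potassium-chloride cotransporter of secretory epithelia, had 1669 and 1116 in GFPhigh and 440 and 599 in GFPlow. Its ratios were 1.92 and 0.90, a mean of 1.41 ± 0.73, so that it passed 2-fold on array 1 and lay just inside it on array 2. With the scanner software's own processed signals it passed on both, at 1.89 and 1.53. Slc12a7, a potassium-chloride cotransporter that carries the ions out of the cell, had 153 and 162 in GFPhigh and 293 and 311 in GFPlow. GFPlow was brighter on both arrays to nearly the same degree, with ratios of -0.94 and -0.95, but GFPhigh was above background on array 1 only. The other 6 members of the family on the array were not measured, and Slc12a1, Slc12a3, Slc12a4 and Slc12a5 were above background in no channel. The median of the 3 measured members was 1.41, and 0.63 with spike-in centring.

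Sodium-proton exchangers differed among themselves. Slc9a3, which takes up sodium at the apical membrane of absorptive epithelia, had 1561 and 2375 in GFPhigh and 722 and 500 in GFPlow. Both GFPhigh values exceeded both GFPlow values, with ratios of 1.11 and 2.25, a mean of 1.68 ± 0.80 or 3.20-fold. This value rests on a probe designed on a cDNA clone, and the probe designed on the RefSeq transcript was above background in GFPhigh on array 1 only, with 152 and 121 in GFPhigh against 94.1 and 101 in GFPlow. Its ratios of 0.69 and 0.27 had the same sign but were not 2-fold. Slc9a3r2, a scaffold protein that binds Slc9a3, had ratios of 0.86 and 1.05, a mean of 0.96 ± 0.13, and 0.17 with spike-in centring. The related scaffold Slc9a3r1 had ratios of opposite sign and a mean of -0.01 ± 0.57. Slc9a2, an exchanger found in gastric epithelium, had a mean ratio of 0.26 ± 0.19. Over the 5 measured members of 11 on the array, the median was 0.26, which turned to -0.69 with spike-in centring over the 7 genes then measured.

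The genes named Car, most of which encode carbonic anhydrases, held both a gene counted as higher in GFPhigh and one counted as higher in GFPlow. Carbonic anhydrases are enzymes that convert carbon dioxide and water to bicarbonate and a proton. Car12, an enzyme on the outer cell surface, had 261 and 317 in GFPhigh and 107 and 145 in GFPlow, with GFPlow exceeding background on array 2 alone. The populations did not overlap, with ratios of 1.29 and 1.13, a mean of 1.21 ± 0.11. Car12 fell short of 2-fold without background correction, at 0.84, and with spike-in centring, at 0.43, and reached 2.19 with the processed signals. Its further probe was above background in no channel, with ratios of 0.06 and 0.06.

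Car13, a cytosolic carbonic anhydrase, had 106 and 146 in GFPhigh, not well above background on either array, and 315 and 304 in GFPlow. By the mean of the arrays it was 2.49-fold higher in GFPlow, with ratios of -1.58 and -1.06, a mean of -1.32 ± 0.37. Without background correction the mean was -0.97 and the 2-fold rule was missed, and with the processed signals it was -3.23. The 5 other measured Car genes, Car5b, Car7, Car9, Car11 and Car14, had means between -0.47 for Car9 and 0.28 for Car11. The median of the 8 was -0.20 of 16 on the array. Car1 and Slc4a1, the carbonic anhydrase and the anion exchanger of red blood cells, were above background in no channel, as were the 5 erythroid markers on the array.

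Other anion transporters and chloride channels were mostly dim. Slc26a11, a sulfate and chloride transporter, had ratios of 0.15 and 0.91, a mean of 0.53 ± 0.54 that turned to -0.26 with spike-in centring. Slc26a2, a sulfate transporter, was not well above background in GFPhigh and was 1.41-fold higher in GFPlow by its mean ratio of -0.49 ± 0.11. The median of the 3 measured Slc26a genes, of 11 on the array, was 0.53, and -0.26 with spike-in centring. Slc4a7, a sodium bicarbonate cotransporter, had ratios of 0.82 and -0.15, and the adaptor Slc4a1ap had -0.29 and 0.22, so that neither kept its sign. Slc4a4, the sodium bicarbonate cotransporter of the basolateral membrane, was above background in no channel.

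Clcn2, a chloride channel of the plasma membrane, had 189 and 233 in GFPhigh and 345 and 377 in GFPlow. GFPlow was brighter on both arrays, with ratios of -0.87 and -0.70 and a mean of -0.78 ± 0.12, and a further Clcn2 probe gave -0.76 and -1.24. Clcn4, a chloride-proton exchanger of intracellular membranes, had a mean ratio of 0.57 ± 0.41, which became -0.07 with median centring and -0.22 with spike-in centring. Cftr, the cAMP-regulated chloride and bicarbonate channel of secretory epithelia, was close to background, with 245 and 199 in GFPhigh and 220 and 268 in GFPlow. Its probe was printed in 8 spots, whose ratios ran from -0.01 to 0.61 on array 1 and from -0.65 to -0.22 on array 2. The ranges of the arrays did not overlap, with an SD between spots of 0.20 and 0.15, and the order of the populations changed with the array, giving a mean of -0.14 ± 0.41. The median of these 3 genes, of 10 on the array, was -0.14.

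Of the 10 aquaporins on the array, 4 were measured, with a median of -0.22. Aqp1, a water channel of many epithelia and of endothelium and red blood cells, had 709 and 851 in GFPhigh and 372 and 331 in GFPlow. Both GFPhigh values exceeded both GFPlow values, and the ratios were 0.93 and 1.36, a mean of 1.15 ± 0.31 or 2.21-fold, just short of the 2-fold rule on array 1. Its mean stayed positive in every alternative, down to 0.36 with spike-in centring. With median centring the mean was 0.56 with an SD of 0.94 between the arrays. Endothelial markers stood beside it as follows: Pecam1, Cdh5 and Kdr were above background in no channel, and Egfl7 had a mean ratio of -0.62 ± 0.39. Aqp3, a channel for water and glycerol, was not well above background in GFPhigh and was 1.29-fold higher in GFPlow by its mean ratio of -0.37 ± 0.04. Aqp11, an intracellular aquaporin, had a mean ratio of -0.42 ± 0.36, and Aqp2, the water channel of the kidney collecting duct, one of -0.06 ± 0.09. Both were above background in GFPhigh on array 1 only.

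The members just inside and just outside the 2-fold rule show how close several were. Inside it, the smaller of the 2 ratios was 1.11 for Slc9a3, 1.13 for Car12 and 1.21 for Slc12a8, and -1.06 for Car13. Outside it, the smaller ratio was 0.93 for Aqp1, 0.90 for Slc12a2 and 0.86 for Slc9a3r2 towards GFPhigh, and -0.94 for Slc12a7 and -0.80 for Car2 towards GFPlow. With array 1 alone 5 members were beyond 2-fold towards GFPhigh and with array 2 alone 8, out of 46 and 42 members measured. Among all genes the counts were then 347 of 9434 and 370 of 9112. Slc12a8, Slc9a3, Kcnq1 and Car12 were in both sets, Slc12a2 was added on array 1, and Aqp1, Atp4b, Kcne3 and Slc9a3r2 were added on array 2. Across the 36 members the ratios of the arrays differed with an SD of 0.59, beside 0.56 for all probes.

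Probes of the same gene gave the same 2-fold call in all 6 members with several measured probes. The means of the pairs differed by 0.13 for Atp4a, 0.22 for Clcn2, and 0.40 for both Atp1b3 and Slc4a7. For Atp4a and Slc4a7 the brighter probe had opposite signs on the arrays, and for Atp1b3 the further measured probe did.

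**Figure D3:**
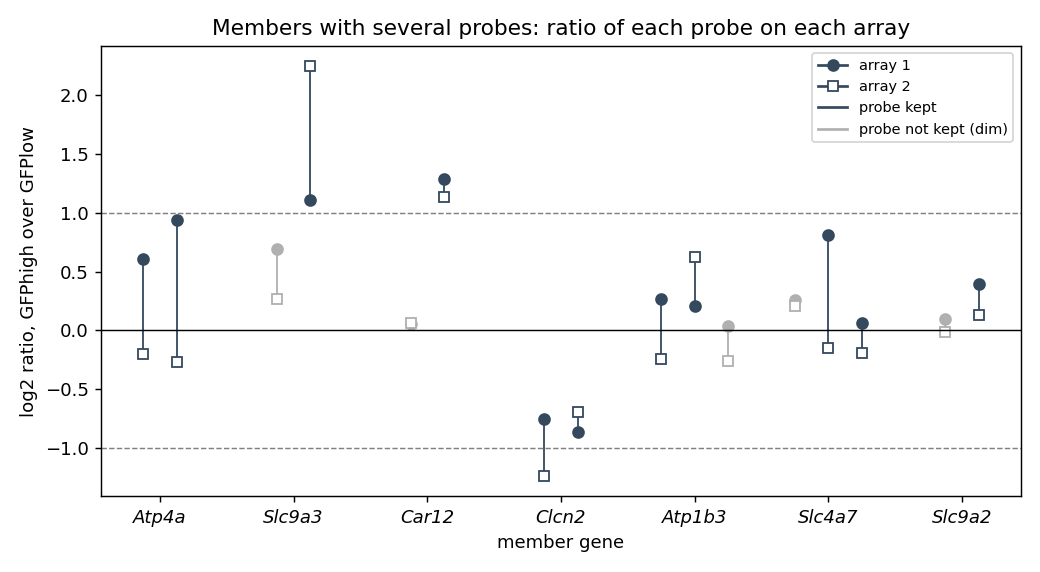
Log2 ratio of GFPhigh over GFPlow (vertical axis) of each probe of 7 members, with filled circles for array 1, open squares for array 2, and probes that were too dim to be measured in grey. Both Atp4a probes are above 0 on array 1 and below 0 on array 2, both Clcn2 probes are below 0 on both arrays, and for Slc9a3 and Car12 a dim probe lies inside the dashed 2-fold lines; spike-in centring would lower the points by 0.59 on array 1 and 0.97 on array 2.

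Partners of these transporters outside the name rule gave 1 counted difference, towards GFPlow. Of 40 listed regulators, channels and transporters, 38 were on the array and 15 were measured, with 0 counted as higher in GFPhigh, 1 in GFPlow and a median of -0.29. Over all measured genes the shares were 1.76% and 2.7% and the median was -0.06. The counted gene was Clca1, a secreted protein that modulates chloride conductance, with ratios of -1.17 and -1.02 and GFPhigh above background on neither array. Fxyd6, a regulator of the sodium pump, had a mean ratio of -1.04 ± 0.68, Scnn1a, a subunit of the epithelial sodium channel, one of -0.85 ± 0.23, and Ezr, which links membrane proteins to actin, one of -0.79 ± 0.38. The kinases Wnk4 and Stk39, which control the Slc12a cotransporters, had means of 0.68 ± 0.18 and 0.48 ± 0.13, both above 0 on each array, and both below the 0.78 by which spike-in centring lowers a ratio. Atp12a, the non-gastric proton pump, was above background in no channel.

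Markers of several other stomach cells differed between the populations. Chief cell markers had a median ratio of 2.31, with 3 of 5 counted as higher in GFPhigh and 1 in GFPlow, and gland mucous cell markers one of 1.83, with 2 of 4 higher in GFPhigh. The summed intensity of the chief cell markers was 135202 and 203642 in GFPhigh and 25092 and 18908 in GFPlow. All 4 pit cell markers were higher in GFPlow, with a median of -2.77 and summed intensities of 17654 and 26264 against 252548 and 156533, and so were 4 of 5 endocrine markers and 3 of 4 proliferation markers. Leukocyte, muscle and stroma markers were above background in no channel for 5 of 6 genes each. The measured markers of tuft cells had a median of -0.92 (2 of 5 measured, 1 counted as higher in GFPlow), those of nerve and glia one of 0.01 (2 of 4), and the squamous marker Lor, the only one of 4 measured, a mean of 0.90 ± 0.10. Which cell types carried the transport genes, and the part of these shifts in their ratios, was not tested.

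Promoters were looked up because several members differed in the same direction. Sequences of the 250 bases before a transcription start, from RefSeq on the GRCm38.p6 build, were found for 26 of the 36 measured members, 37 starts in all, and Kcnq1, Atp4b and Car13 were not among them. They are shown for the other members counted as higher in GFPhigh and for Atp4a, for Slc12a8 at the most upstream of its 3 starts, with a match to the TCF/LEF core in capitals.
Slc12a8, chr16:33517078-33517327, plus strand: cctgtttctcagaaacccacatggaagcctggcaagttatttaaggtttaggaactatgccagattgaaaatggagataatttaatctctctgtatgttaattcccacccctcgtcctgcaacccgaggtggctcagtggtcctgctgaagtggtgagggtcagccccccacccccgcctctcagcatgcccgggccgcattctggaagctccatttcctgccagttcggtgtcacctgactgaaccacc
Slc9a3, chr13:74121163-74121412, plus strand: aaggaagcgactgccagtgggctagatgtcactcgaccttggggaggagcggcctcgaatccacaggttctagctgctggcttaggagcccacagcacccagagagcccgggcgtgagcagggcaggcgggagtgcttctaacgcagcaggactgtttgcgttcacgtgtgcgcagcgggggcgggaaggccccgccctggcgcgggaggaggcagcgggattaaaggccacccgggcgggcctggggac
Car12, chr9:66713436-66713685, plus strand: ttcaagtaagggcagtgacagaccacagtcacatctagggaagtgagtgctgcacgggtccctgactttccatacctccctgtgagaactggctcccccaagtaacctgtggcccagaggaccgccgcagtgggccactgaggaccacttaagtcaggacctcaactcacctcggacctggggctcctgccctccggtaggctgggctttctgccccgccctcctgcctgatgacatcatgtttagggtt
Atp4a, chr7:30711959-30712208, plus strand: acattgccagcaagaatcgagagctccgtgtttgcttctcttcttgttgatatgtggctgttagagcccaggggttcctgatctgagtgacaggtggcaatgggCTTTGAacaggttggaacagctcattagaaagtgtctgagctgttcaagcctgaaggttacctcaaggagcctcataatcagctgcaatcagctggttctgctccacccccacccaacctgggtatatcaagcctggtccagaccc
The motifs searched on both strands were CTTTGA, the core bound by the TCF/LEF factors of the Wnt pathway, AAGGTCA, the site of the ERR nuclear receptors, of which Esrrg is used as a parietal cell marker, and TGATAA, bound by factors of the Gata family. No motif contains another. CTTTGA was in 13.5% of the 37 promoters and in 13.8% of all 32851 promoters of this length. Among the members shown it was present in Atp4a, 146 bases before the start, and in Slc12a8 only before a different start, on the opposite strand. AAGGTCA was in 0 of the 37 and in 4.08% of all promoters, and TGATAA in 2.70% and 7.94%. A match is a description of letters only.

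Across the processing choices, the ratio of Slc12a8 ran from 0.91 to 2.17, Slc9a3 from 0.90 to 2.25, Kcnq1 from 0.83 to 1.86, Slc12a2 from 0.63 to 1.92, Car12 from 0.43 to 2.19 and Aqp1 from 0.36 to 1.36, all above 0. Atp4b ran from -0.02 to 1.16 and Atp4a from -0.45 to 0.94. Car2 and Car13 stayed below 0 throughout. Where both arrays were used these values are means. Under median centring the SD between the arrays exceeded the mean for several, such as Kcnq1 (1.87) and Aqp1 (0.94). Relative to the median of all genes under the same setting, the loess values were 1.75 for Slc12a8, 1.74 for Slc9a3 and 1.67 for Kcnq1. With median centring they were 1.43, 1.49 and 1.35. Spike-in centring subtracts 1 constant per array from the loess ratios, so its relative values (1.72, 1.71 and 1.64) are close to those of loess by construction.

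**Figure D4:**
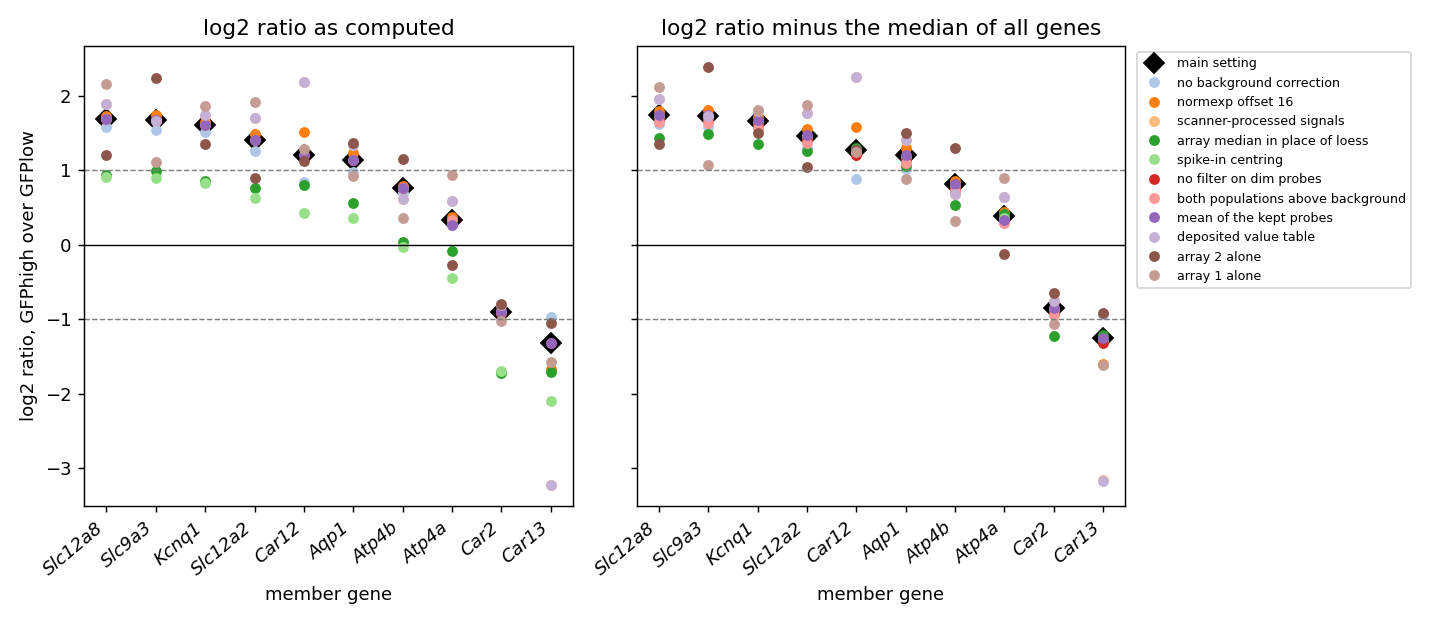
Log2 ratio of GFPhigh over GFPlow (vertical axis) of 10 members under each processing choice, as computed (left) and after subtraction of the median of all genes under the same choice (right), with the reported value as a black diamond. On the left median and spike-in centring (green) pull all points down. Atp4a turns negative under both and Atp4b under spike-in centring, while Slc12a8, Slc9a3 and Kcnq1 stay above 0. On the right the green points lie closer to the reported values, for spike-in centring by construction. Points of the scanner-processed signals lie under those of the deposited value table.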

How the data were processed

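Two-colour Agilent arrays of 1 design were used. The authors deposited scanner output, in which each spot has a mean intensity and a local background median intensity per dye. Processed intensities were background-subtracted, detrended and dye-normalized by Feature Extraction 10.5.1.1, per the file headers (the submitters' processing notes name 9.5.3). The deposited log10 ratios, processed Cy5 over Cy3, lie within 0.0050 of a deposited value table once turned to GFPhigh over GFPlow, where that table is filled (it is empty at 22558 and 24241 of 45018 spots). This settled its scale, centring and direction. Its column medians are 0.0188 and -0.0458.

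Intensities were background-corrected (limma 3.58.1 in R 4.3.3, normexp, offset 50) and loess-normalized within arrays, with controls at weight 0. Outlier spots were left out and spots of a probe averaged. The offset pulls dim ratios towards 0. A probe counted as measured if, on each array, the brighter population exceeded background clearly. A gene took its brightest such probe. Levels are per channel after loess and Aquantile normalization. Where a population was above background on neither array, a bound set the brighter level against the higher of the dim level and the lowest level well above background. For Car13, Slc26a2 and Aqp3 it equalled the measured fold, so it sets no lower limit.

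Symbols were updated through a RefSeq table (GRCm38.p6), which changed 2 members' names (Slc9c1, Clcn4). All 40 partner genes and 13 marker lists, like the members, were chosen with earlier results of these data known. Values were named for Lgr5, measured acid secretion genes, members past 2-fold, members with bounds of at least 1.5-fold, the 3 largest ratios per family and up to 4 per list. Slc9a2, Slc9a3r1, Aqp2 and the smaller ratios of the Car genes were added after their values were seen. Some members' values are not reported here. The arrays share 1 slide, so no batch was tested. Alternatives covered background correction, signals, centring, filter, probe and name rules, threshold, value table and each array alone.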

Additional observations from a re-analysis of the deposited data

How the results depend on the processing

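The count of members higher in GFPhigh, 4 as reported, was 0 with median centring, 0 with spike-in centring, 7 with processed signals, 7 with the value table, 8 at a 1.5-fold threshold and 0 at 3-fold, and between 5 and 8 with 1 array alone. Without background correction, and where both populations had to be above background, Slc12a8, Slc9a3 and Kcnq1 were still counted but Car12 was not. The count higher in GFPlow, 1 as reported, was 0 without background correction, 2 with offset 16, 4 with processed signals, 6 with spike-in centring, 0 where both populations had to be above background, 4 at 1.5-fold, 0 at 3-fold, 4 with the value table, and between 1 and 2 with 1 array alone. The counts of all genes, higher in GFPhigh against GFPlow, moved too: 93 against 145 without background correction, 184 against 288 with offset 16, 352 against 511 with processed signals, 352 against 508 with the value table, 10 against 215 with median centring, 22 against 1313 with spike-in centring, 125 against 139 where both populations had to be above background, 438 against 587 at 1.5-fold, 32 against 72 at 3-fold, and 347 against 397 and 370 against 496 with array 1 and array 2 alone. The acid secretion median of 0.47 was -0.037 with median centring, -0.45 with spike-in centring and 0.16 without a filter, and between 0.36 and 0.40 with 1 array alone. These medians, and those of the other members below, cover the genes measured under each setting. The acid secretion genes numbered 6 as reported, 7 with spike-in centring, 13 without a filter and 7 with either array alone. The median of the other members, 0.18 as reported, was 0.14 without background correction, 0.20 with offset 16, 0.33 with processed signals, 0.33 with the value table, -0.25 with median centring, -0.67 with spike-in centring, 0.039 without a filter, 0.47 where both populations had to be above background, 0.11 with the mean of the probes, and between -0.14 and 0.20 with 1 array alone. The cause of these moves was not tested, except that other thresholds and filters by construction count other genes. No paired analysis was possible because the labels name no separate RNA preparations, and the arrays were taken as repeat measurements of 1 sample per population. Signal over background limits the 76 unmeasured members, and the number of arrays limits the precision of the rest.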
